A study of Rattus norvegicus with 4 samples.

Results

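The insulin-like growth factor (IGF) system was described here through 10 genes: the ligands Igf1 and Igf2, the receptors Igf1r and Igf2r, and the binding proteins Igfbp1 to Igfbp6. A gene was taken through the probe set that carries its symbol alone in the platform annotation, and each of the 10 had exactly 1 such probe set. All 10 were among the 18166 genes tested. Total RNA came from the uterus of pregnant Sprague Dawley rats aged 10 to 12 weeks, taken on day 5 of pregnancy, before implantation. In the first group, 2 biological replicates, rats had eaten a 1.25 mg per kg dose of Ormeloxifene (Orm) in gum acacia on day 1; in the second, also 2, rats had received only the vehicle. Orm is a non-steroidal modulator of oestrogen receptors that is used as an oral contraceptive, and the comparison asks which uterine transcripts differed after it. Each replicate was hybridised to 1 Affymetrix array; the sources used here do not give whether its RNA came from 1 rat or from several.

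IGF1 and IGF2 are secreted peptides that act through the tyrosine kinase receptor IGF1R, which signals through IRS adaptors, PI3-kinase and AKT. IGF2R, which also carries mannose 6-phosphate proteins to lysosomes, takes up IGF2 and removes it. The binding proteins hold the ligands in blood and tissue and may block or prolong their action, and proteases release the ligands again. In the rodent uterus, Igf1 is known as an oestrogen-induced gene of the stroma that takes part in epithelial growth.

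Values are log2 signals after quantile normalization of the 4 arrays, and differences are ormeloxifene minus vehicle on that scale with their standard error. The differences of largest size were those of 2 binding proteins: Igfbp1 was 2.07-fold lower with ormeloxifene and Igfbp5 was 1.54-fold higher, whereas both ligands and both receptors lay within 0.16 of their vehicle mean on the log2 scale. None of the 10 passed an adjusted p under 0.05 by limma (two-sided, Benjamini-Hochberg over all genes; every member at adjusted p = 1.00), and 0 of all 18166 genes did (0% in either direction). At an unadjusted p under 0.05 stood 2 of the 10 members, 1 higher and 1 lower, against 2.20% of all genes (399 genes, 1.12% higher and 1.08% lower). With 2 arrays against 2, the smallest p that exact permutation allows for a gene is 0.333. All values are limited in precision by the number of arrays.

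**Figure D1:**
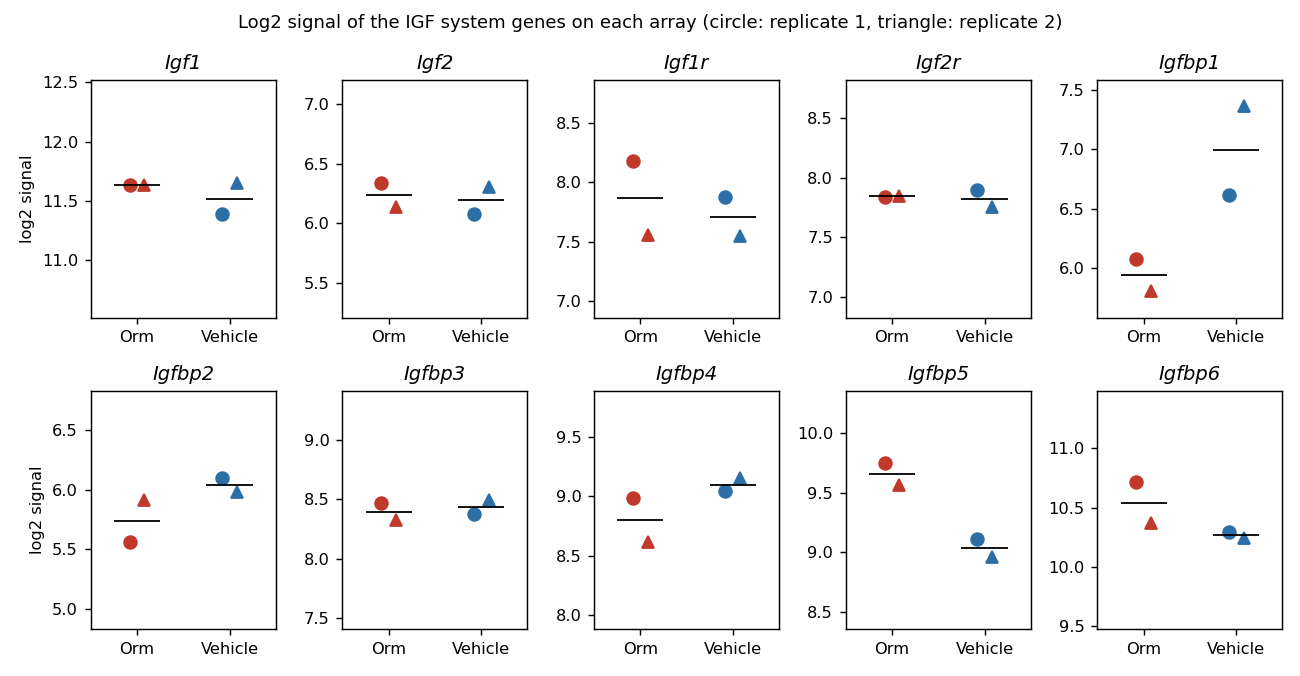
Log2 signal (y axis, a span of 2 in every panel) of the 10 genes on each array, with the ormeloxifene (Orm) arrays at left in red and the vehicle arrays at right in blue. Circles are replicate 1, triangles replicate 2 and the bar is the group mean; Igfbp1 lies lower and Igfbp5 higher on both ormeloxifene arrays, and the groups overlap for Igf1, Igf2, Igf1r, Igf2r and Igfbp3.

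Among the ligands, Igf1 had a log2 signal of 11.63 on both ormeloxifene arrays, against 11.39 and 11.65 on the vehicle arrays. The 2 ormeloxifene values became equal through normalization: as deposited they were 11.36 in replicate 1 and 11.85 in replicate 2. The groups overlapped, and vehicle replicate 1 was the lowest array. The difference was 0.11 ± 0.21, with a 95% interval from -0.38 to 0.60. Igf2, a growth factor of fetal tissues, was 6.34 and 6.14 with ormeloxifene, against 6.08 and 6.31 with vehicle. Here too the groups overlapped, at a difference of 0.05 ± 0.22 (95% interval -0.46 to 0.55). Between arrays of the same replicate number, both ligands were higher with ormeloxifene in number 1 (0.24 for Igf1 and 0.26 for Igf2) and lower in number 2 (-0.02 and -0.17).

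Of the receptors, Igf1r was 8.18 and 7.55 with ormeloxifene, against 7.88 and 7.54 with vehicle. Replicate 1 was the higher array in both groups, which overlapped. Its difference was 0.16 ± 0.27 (95% interval -0.47 to 0.79), the widest interval among ligands and receptors; without ormeloxifene replicate 1 it was -0.15, and without ormeloxifene replicate 2 it was 0.47. Igf2r was 7.84 and 7.85 with ormeloxifene, against 7.90 and 7.75 with vehicle. The ormeloxifene arrays lay between the vehicle arrays, at a difference of 0.02 ± 0.20 (95% interval -0.46 to 0.50). For all 4 ligand and receptor genes these intervals leave room for differences of about 0.4 or more on the log2 scale in either direction, so the arrays cannot show that they were alike.

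Igfbp1, in human endometrium a well-known product of decidualised stroma and in liver a gene that insulin represses, was the member with the largest difference. Its log2 signal was 6.08 and 5.81 with ormeloxifene, against 6.62 and 7.36 with vehicle. Both ormeloxifene arrays lay below both vehicle arrays, and vehicle replicate 2 stood highest. The group values were 5.94 ± 0.19 with ormeloxifene and 6.99 ± 0.53 with vehicle (SD, n = 2 each), a difference of -1.05 ± 0.29 (95% interval -1.71 to -0.38; limma, unadjusted p = 0.00715, adjusted p = 1.00). It ranked 65th by p among the 18166 genes, and an absolute difference of at least 1 was found in 38 genes (0.209%). The size rested partly on vehicle replicate 2: without it the difference was -0.67, and without vehicle replicate 1 it was -1.42. Within replicate number 1 the difference was -0.54 and within number 2 it was -1.56.

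Igfbp5, which binds extracellular matrix as well as IGFs, was the member of next smallest p. Its signal was 9.75 and 9.56 with ormeloxifene, against 9.11 and 8.96 with vehicle. Both ormeloxifene arrays lay above both vehicle arrays, and the replicates of a group differed by less than 0.2 after normalization. They were further apart as deposited, at 9.48 and 9.80 with ormeloxifene against 8.86 and 9.20 with vehicle. The group values were 9.66 ± 0.13 with ormeloxifene and 9.04 ± 0.11 with vehicle (SD, n = 2 each), a difference of 0.62 ± 0.21 (95% interval 0.13 to 1.11; limma, unadjusted p = 0.0196, adjusted p = 1.00). Within replicate numbers 1 and 2 the difference was 0.64 and 0.60. Leaving out 1 array gave values from 0.53 to 0.71; the unadjusted p was 0.128 without ormeloxifene replicate 1, 0.0778 without vehicle replicate 2 and 0.0764 on the values as deposited.

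The other binding proteins differed by less. Igfbp2, which can also bind integrins, was 5.56 and 5.91 with ormeloxifene, against 6.10 and 5.98 with vehicle. The groups did not overlap, but ormeloxifene replicate 2 came within 0.07 of vehicle replicate 2, and the difference was -0.31 ± 0.22 (limma, unadjusted p = 0.208). In the deposited values these 2 arrays hold the same number for Igfbp2, 6.051. Igfbp4, an inhibitory binding protein that the protease PAPPA cleaves, was 8.99 and 8.62 with ormeloxifene, against 9.04 and 9.15 with vehicle. Ormeloxifene replicate 2 was the low array, and the difference of -0.30 ± 0.22 (limma, unadjusted p = 0.225) was -0.06 within number 1 and -0.53 within number 2.

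Igfbp6, which prefers IGF2 to IGF1, was 10.71 and 10.37 with ormeloxifene, against 10.29 and 10.25 with vehicle. Ormeloxifene replicate 1 was the high array, at a difference of 0.27 ± 0.22 (limma, unadjusted p = 0.257) that was 0.42 within number 1 and 0.12 within number 2. Igfbp3, the main IGF carrier of blood, was 8.47 and 8.32 with ormeloxifene, against 8.38 and 8.50 with vehicle. On these normalized values it was the only binding protein whose groups overlapped, at a difference of -0.04 ± 0.21 (95% interval -0.52 to 0.44).

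**Figure D2:**
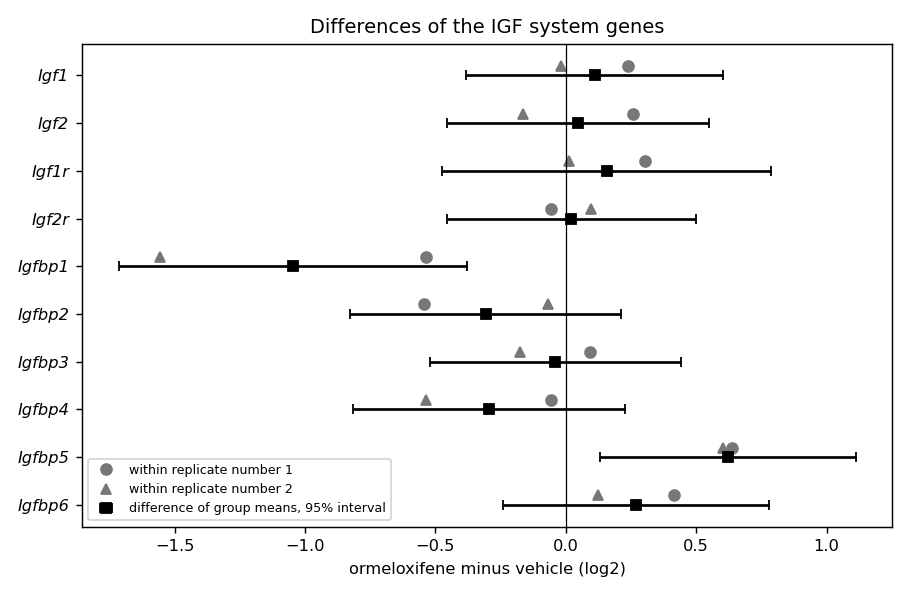
Difference in log2 signal, ormeloxifene minus vehicle (x axis), for the 10 genes; squares and bars are the limma difference and its 95% interval, and grey circles and triangles are differences between arrays of replicate number 1 and 2. The interval lies below 0 for Igfbp1 and above 0 for Igfbp5 and includes 0 for the other 8 genes.

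The groups thus did not overlap for 5 of the 10 members, all of them binding proteins, against 25.7% of all genes. Of these, Igfbp5 and Igfbp6 were higher with ormeloxifene (13.9% of all genes) and Igfbp1, Igfbp2 and Igfbp4 were lower (11.8%), so the binding proteins did not go one way. That count depended on the scaling. On the values as deposited the groups did not overlap for Igfbp1 and Igfbp5 alone, 2 of the 10, against 17.2% of genes; with arrays centred on their medians they did not for Igfbp1, Igfbp2 and Igfbp5, 3 of the 10, against 21.8%. Over the 10 members, 6 differences were positive, against 53.4% of all genes, and 4 negative, with a median of 0.03 against 0.02 over all genes. The median absolute difference was 0.21 in the members and 0.13 over all genes. The replicates of a group differed by a median of 0.23 in the members with ormeloxifene and 0.15 with vehicle. Over all genes these medians were 0.23 with ormeloxifene and 0.27 with vehicle.

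**Figure D3:**
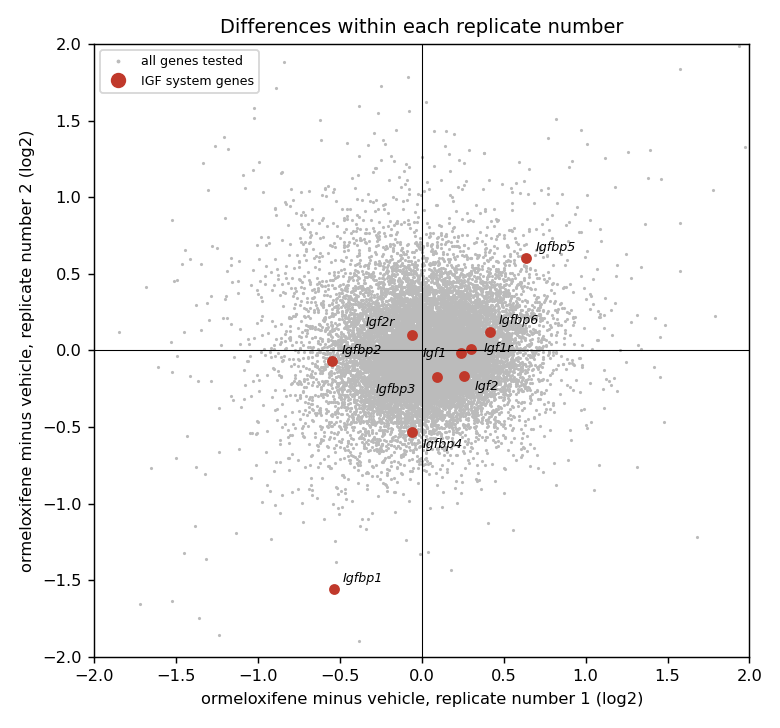
Difference, ormeloxifene minus vehicle, between the arrays of replicate number 1 (x axis) and of number 2 (y axis), both in log2; grey points are the genes tested, of which 3 lie outside the axes, and red points are the 10 IGF system genes. Igfbp1 lies at -0.54 and -1.56 and Igfbp5 at 0.64 and 0.60, while Igf1, Igf2, Igf2r and Igfbp3 have opposite signs on the axes.

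In the rat genome 4 of the binding protein genes lie in neighbouring pairs, Igfbp1 beside Igfbp3 on chromosome 14 and Igfbp2 beside Igfbp5 on chromosome 9. In the GRCr8 annotation each pair is on opposite strands with 0 annotated genes between them. The neighbours did not share their values: Igfbp1 differed by -1.05 and Igfbp3 by -0.04, and Igfbp5 by 0.62 and Igfbp2 by -0.31. The difference between neighbours was not tested.

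Sequences around the start sites of Igfbp1 and Igfbp5 are shown because these were the 2 members at an unadjusted p under 0.05. All 10 members had a window in the RefSeq table. The windows are RefSeq sequences of 300 bases on GRCr8, from 250 bases before the annotated start to 50 after it, written 5′ to 3′ along the gene at chr14:86261027-86261326 (plus strand) for Igfbp1 and chr9:81914138-81914437 (minus strand) for Igfbp5. Capitals mark matches on either strand to the motifs searched.
Igfbp1: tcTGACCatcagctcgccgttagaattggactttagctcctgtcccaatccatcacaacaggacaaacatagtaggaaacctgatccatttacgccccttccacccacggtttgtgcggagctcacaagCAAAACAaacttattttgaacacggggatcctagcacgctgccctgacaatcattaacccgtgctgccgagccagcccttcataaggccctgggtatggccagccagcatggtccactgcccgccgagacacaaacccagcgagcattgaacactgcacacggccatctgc
Igfbp5: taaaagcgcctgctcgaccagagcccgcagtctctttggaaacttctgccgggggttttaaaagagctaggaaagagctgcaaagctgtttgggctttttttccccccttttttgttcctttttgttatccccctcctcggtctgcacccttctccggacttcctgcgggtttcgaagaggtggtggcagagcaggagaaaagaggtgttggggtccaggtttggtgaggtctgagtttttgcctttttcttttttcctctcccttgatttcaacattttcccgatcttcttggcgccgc
The motifs were the core of the forkhead and insulin response element, CAAAACA; the core repeat of the oestrogen response element, GGTCA, and the full palindrome GGTCANNNTGACC; the core of the glucocorticoid and progesterone response element, AGAACA; and the TATA box, TATAAA. The Igfbp1 window held CAAAACA from -121 to -115 relative to the start site and GGTCA, on the other strand, from -248 to -244. The Igfbp5 window held none of the motifs. Among 33469 windows of this length, CAAAACA was present in 6.28%, GGTCA in 40.5%, AGAACA in 20.7%, TATAAA in 14.2% and the palindrome in 0.0269%. A match describes letters and not binding; the palindrome contains GGTCA, and the matches in the Igfbp1 window did not overlap each other. Of the other members, Igf1 also held CAAAACA, from -67 to -61. GGTCA was also present in windows of Igf1, Igf2, Igf2r and Igfbp6, AGAACA in Igf1 and Igfbp6, and TATAAA in Igfbp4.

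Further genes of the pathway, in 7 lists, showed 0 of 54 measured at an adjusted p under 0.05 and 0 at an unadjusted p under 0.05 (limma), against the 2.20% of all genes given above. Of the 54, 32 were higher with ormeloxifene, against 53.4% of all genes, and 22 lower, at a median of 0.03. The groups did not overlap for 8, against 25.7% of all genes. Among proteases of the binding proteins and their inhibitors (5 measured, median 0.03), the PAPPA inhibitors Stc2 (-0.34 ± 0.28) and Stc1 (0.13 ± 0.27) had the smallest p. Pappa itself differed by 0.03 ± 0.29, Pappa2 by 0.04 ± 0.22 and the protease Htra1 by -0.02 ± 0.21.

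Secreted relatives of the binding proteins and Igfals, the partner of IGFBP3 in the ternary complex of blood, had a median of -0.00 over 11 genes, led by the matricellular proteins Ccn2 (-0.42 ± 0.23) and Ccn4 (-0.26 ± 0.21). In the insulin family (4 genes, median -0.13) Ins1 differed by -0.15 ± 0.27 and the insulin receptor Insr by 0.12 ± 0.24. Receptor adaptors (8 of 10 measured, median -0.00) had Gab1 at 0.34 ± 0.24 and the insulin receptor substrate Irs1 at 0.16 ± 0.27. Of the PI3-kinase, AKT and mTOR genes 17 of 20 were measured, 13 higher and 4 lower at a median of 0.09. Over all genes 53.4% were higher. The median of these 17 genes was 0.18 within replicate number 1 and -0.02 within number 2. The regulatory subunit Pik3r1 (0.39 ± 0.20) and the mTOR partner Rptor (0.20 ± 0.24) had the smallest p there, and Foxo1, a forkhead factor known to act on the IGFBP1 promoter in liver cells, was -0.17 ± 0.21.

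The growth hormone receptor Ghr was 8.17 and 8.11 with ormeloxifene, against 7.81 and 7.71 with vehicle, a difference of 0.39 ± 0.20 without overlap. Its signal transducer Stat5b differed by 0.21 ± 0.21, and the 6 genes of this arm had a median of 0.05. The RNA-binding proteins Igf2bp1 (0.20 ± 0.30) and Igf2bp2 (0.16 ± 0.23) belonged to a list of which 3 of 5 were measured, with a median of 0.16. The unmeasured genes were not analysed here.

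**Figure D4:**
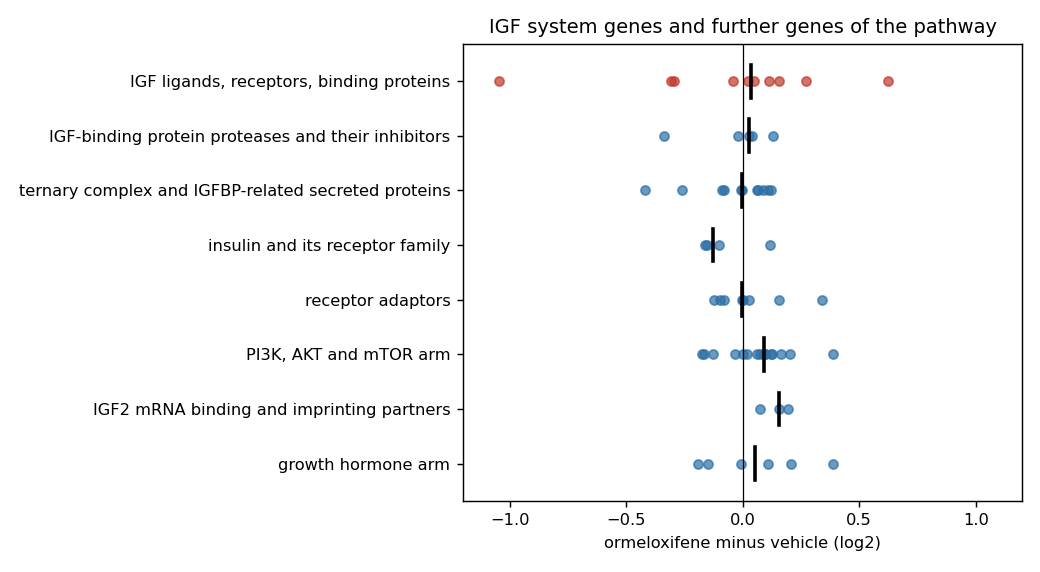
Difference in log2 signal, ormeloxifene minus vehicle (x axis), of the 10 IGF system genes (red, top row) and of 54 further genes of the pathway in 7 lists (blue); each point is a gene and the black bar is the median of its row. The 10 genes run from -1.05 for Igfbp1 to 0.62 for Igfbp5, and the further genes from -0.42 to 0.39.

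By a fixed rule, the genes most like Igfbp1 were sought as the smallest root mean square distance between array values. Each gene was centred on its mean over the 4 arrays. Distances were taken to 18165 others, and the nearest 3 with an established symbol, not a placeholder one, were named. These were Pramef8l2 at 0.10, the immediate-early nuclear receptor Nr4a1 at 0.16 and cyclin A2, Ccna2, at 0.16. Pramef8l2, dim at percentile 8.01 of the genes tested, was 3.65 and 3.61 with ormeloxifene, against 4.17 and 5.00 with vehicle. Nr4a1 was 6.62 and 6.27 with ormeloxifene, against 7.15 and 7.52 with vehicle, and Ccna2 was 6.43 and 6.42, against 7.03 and 7.52. As with Igfbp1, vehicle replicate 2 was the highest array for these genes. The choice by likeness favours that pattern, so it is not a separate result.

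Defining markers of uterine epithelium (Krt8, Krt18, Epcam), stroma (Col1a1, Vim, Hoxa10) and muscle (Myh11, Tagln) had mean signals between the 63.6th and the 99.9th percentile of the genes tested; over the whole epithelial list the lowest was Foxa2, at the 36.8th. The 10 members' mean signals lay between the 40.4th (Igfbp2) and the 99.7th percentile (Igf1). In whole tissue, fewer cells of a type and less RNA per cell cannot be told apart. Beside Igfbp1, which liver also makes, stands Alb, albumin, which was 7.29 and 7.14 with ormeloxifene, against 8.61 and 8.50 with vehicle (-1.34 ± 0.21). Of the liver markers 17 of 20 were measured, 9 higher and 8 lower at a median of 0.05; their summed linear signal was 784 to 823 with ormeloxifene and 979 to 1092 with vehicle. Without Alb that sum was 643 to 667 with ormeloxifene and 619 to 702 with vehicle, so the groups then overlapped. Those other markers were mostly dim: their mean signals ran from percentile 10.6 of the genes tested (Fgg) to 43.2 (Hpx) and 64.1 (Serpina1). A difference in dim markers is hard to see, so the overlap does not show that liver RNA was alike. Alb, at percentile 85.6, was the only liver marker at an unadjusted p under 0.05 (limma), against 2.20% of all genes. The defining liver markers Ttr (-0.19 ± 0.26) and Apob (0.23 ± 0.24) differed in opposite directions, and Apoa1 was not analysed here. A haemoglobin gene, Hba-a1, 1 of the 2 blood markers measured, was also lower, at 5.09 and 4.97 with ormeloxifene against 5.89 and 5.65 with vehicle (-0.73 ± 0.21; limma, unadjusted p = 0.00951); the other, Ahsp, differed by 0.10 ± 0.52. The mean signals of Hba-a1 and Ahsp stood at percentiles 28.1 and 10.7. The part of liver or blood transcripts in the Igfbp1 value was not tested.

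Decidual markers (9 of 10 measured, 4 higher and 5 lower, median -0.11) included 2 at an unadjusted p under 0.05, against 2.20% of all genes. These were the prolactin family genes Prl8a2 (0.61 ± 0.21) and Prl3c1 (0.56 ± 0.22), which were higher with ormeloxifene and dim: their mean signals stood at percentiles 3.58 and 6.78 of the genes tested. Epithelial markers had a median of -0.15 (12 measured, 8 lower), with 1 at an unadjusted p under 0.05, the transcription factor Elf3 (-0.48 ± 0.21; limma, unadjusted p = 0.0492), and a summed signal of 2757 to 2798 with ormeloxifene and 2505 to 3083 with vehicle. Beside Igfbp5, smooth muscle markers were higher in 8 of 8 measured, against 53.4% of all genes. Their median was 0.34, with 0 at an unadjusted p under 0.05. Their summed signal was 13120 to 14670 with ormeloxifene and 10822 to 12061 with vehicle; stromal markers (11 of 12 measured) had a median of 0.08, and 19925 to 21668 with ormeloxifene against 19371 to 20177 with vehicle. The part of muscle or stroma in the Igfbp5 value was not tested. Medians were 0.11 for macrophage markers (7 of 9 higher) and 0.20 for vessel markers (5 of 5 higher). They were 0.14 for ovary and oviduct markers (4 of 5 higher) and -0.07 for trophoblast markers (2 of 6 higher).

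**Figure D5:**
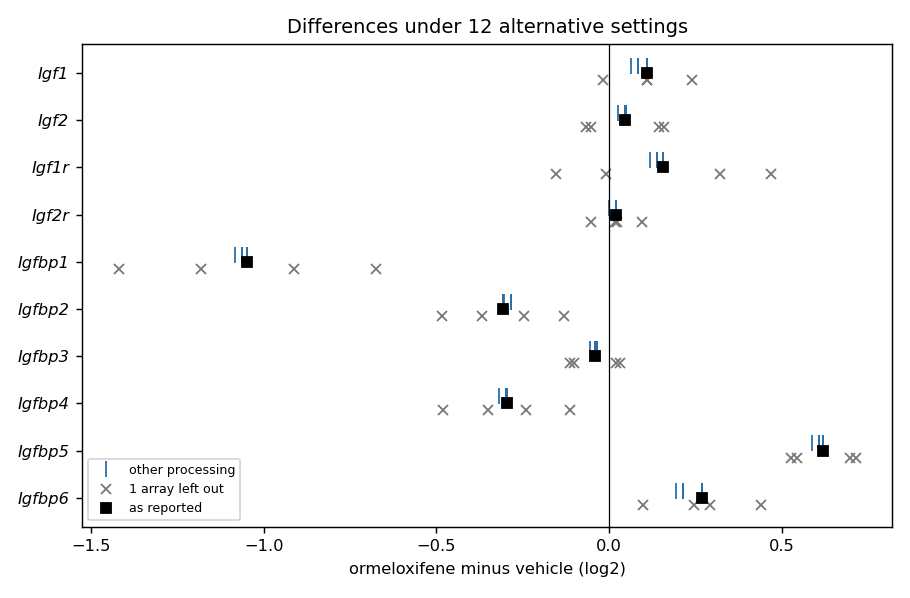
Difference in log2 signal, ormeloxifene minus vehicle (x axis), of the 10 genes as reported (square), under 8 other ways of processing or fitting (blue ticks) and with 1 array left out (grey crosses). Igfbp1 stays between -1.42 and -0.67 and Igfbp5 between 0.53 and 0.71, while Igf1, Igf2, Igf1r, Igf2r and Igfbp3 lie on both sides of 0.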

How the data were processed

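Uterine RNA was measured on 4 arrays, 2 per group. Per the labels' protocols, 100 ng of Trizol-extracted RNA was made into biotin-labelled DNA. The table that the authors deposited gives log2 signals of 36685 probe sets, made with Affymetrix Expression Console per the submitters' processing notes; not given in the sources used here are its version, summary method and build. That the scale is log2 was read from its range (0.923 to 13.59). Column medians were unequal (5.67 to 5.93), so quantile normalization was applied.

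Of the probe sets, 18511 had 1 gene symbol, 575 several and 17599 none; 18394 matched GRCr8 by gene number, used for names. The brightest probe set per gene was kept, and 18166 genes were tested with limma 3.58.1 in R 4.3.3. The fit used lmFit and eBayes without a block, with 2 residual degrees of freedom, 7.55 after moderation. Its code was also run on simulated arrays drawn independently, which lack what arrays of the same replicate number share here. Deposited values were exactly equal 488 and 551 times between arrays of the same replicate number and 0 times in the other 4 pairs; the labels name no batch. The p-values rest on the spread between labelled biological replicates, moderated towards the spread over all genes. Whatever arrays of the same replicate number share is part of that spread. Members and lists were chosen with earlier results of these data known. Named were all members, listed markers, and the 2 genes of smallest p per further list (or those under an unadjusted 0.05). Also named were the 3 genes of established symbol most like the member of smallest p. Pappa, Pappa2, Htra1, Foxo1 and single markers were named after their values were seen. Alternatives are listed in the closing section.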

Additional observations from a re-analysis of the deposited data

How the results depend on the processing

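The 10 differences were recomputed under 12 alternatives. Of 120 values, 112 kept the sign of the reported one and 8 did not, all 8 with 1 array left out and in Igf1, Igf2, Igf1r, Igf2r or Igfbp3. Past the adjusted threshold stood 1 value, Igfbp1 with the replicate block and no normalization (adjusted p = 0.0117), where 84 genes passed and the fit had 39.5 degrees of freedom after moderation; over the other alternatives its adjusted p ran from 0.254 to 1.00. With the replicate block on normalized values, Igfbp1 (adjusted p = 0.419) and Igfbp5 (0.512) did not pass, 5 genes did, and 1228 had an unadjusted p under 0.05 (1163 with the block and no normalization). Deviations from group means correlated at 0.48 between arrays of the same number across genes; with 2 numbers the labels alone do not show a pairing.

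Genes past the adjusted threshold numbered 1 with arrays centred on their medians, 4 without the dimmest 20% of genes, 1 with probe sets averaged, 4 with trend and robust moderation, and 0 to 3 with 1 array left out. Genes at an unadjusted p under 0.05 numbered 142 on the values as deposited (57 higher, 85 lower), 888 of all probe sets, and 309 to 945 with 1 array left out; centring on medians gave 112 higher and 183 lower, against 203 and 196. Members at an unadjusted p under 0.05 numbered 1 on the values as deposited and 1 to 2 with 1 array left out. Members without overlap numbered 2 on the values as deposited and 3 after centring. With 1 array left out, the lone array is taken to vary like the other group. Igfbp2 ran from -0.48 to -0.13, Igfbp4 from -0.48 to -0.11 and Igfbp6 from 0.10 to 0.44. The causes were not tested.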
